A study of Mus musculus with 8 samples.

Results

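The 6 genes Ccl28, Ccr10, Madcam1, Jchain, Pigr and Fcgrt, which bring IgA-secreting cells to the mammary gland, or carry antibody across its epithelium, were followed from pregnancy to lactation. They are 6 of the 25050 genes with a symbol in the deposited table, and each had 1 probe set under its current symbol, so no choice between probe sets was needed. The members were chosen by name with their differences between the stages already known, so their values are given as a description without a test. The name IgA homing and secretion holds for 5 of the 6, since Fcgrt encodes a receptor for IgG and albumin.

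The arrays measured RNA of mammary epithelial cells from wild-type (WT) FVB mice in their 1st parity, depleted of adipocytes by enzymatic digestion. The 4 arrays of pregnancy day 14 represent secretory differentiation, and the 4 arrays of lactation day 4 secretory activation, with day 1 counted from the first morning with a litter. No treatment and no transgene is recorded for either group, and nothing in the labels ties an array to a separate mother, so p-values reflect how much these arrays scatter, which could be technical scatter. Values are log2 GC-RMA values, in which a difference of 1 is a factor of 2, and they carry no call of presence or absence.

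Milk IgA is made by plasma cells that migrate into the gland from the gut and other mucosal sites and settle beside the alveoli. The epithelium secretes the chemokine CCL28, which attracts cells bearing CCR10, while the adhesion molecule MAdCAM-1 on venules holds cells bearing the integrin α4β7. Plasma cells link IgA into dimers with the J chain, and the polymeric immunoglobulin receptor takes up these dimers at the base of the epithelial cell, carries them across and is cleaved at the apical surface, releasing them into milk as secretory IgA.

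The promoters of Ccl28 and Pigr are shown because these were the 2 genes of the 6 whose lactation values all lay above their pregnancy values, and that of Madcam1 because it held neighbouring matches to a motif of an inflammatory transcription factor. All 3 were chosen with the genes' values known, and Pigr and Madcam1 also after their matches were seen. Each sequence is from RefSeq on build GRCm38.p6 and runs 5′ to 3′ on the gene's strand from 250 bases before the annotated start to 50 bases after it. The sequence table held 5 of the 6 genes, all but Ccr10. Capitals mark matches to any of 5 motifs searched on both strands.
Ccl28, chr13:119623569-119623868, + strand: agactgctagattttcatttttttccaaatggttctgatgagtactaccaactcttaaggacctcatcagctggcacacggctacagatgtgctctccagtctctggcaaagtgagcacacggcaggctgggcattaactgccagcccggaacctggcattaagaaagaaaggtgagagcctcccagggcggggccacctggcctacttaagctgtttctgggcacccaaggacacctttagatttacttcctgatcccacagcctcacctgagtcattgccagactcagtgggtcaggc
Pigr, chr1:130826434-130826733, + strand: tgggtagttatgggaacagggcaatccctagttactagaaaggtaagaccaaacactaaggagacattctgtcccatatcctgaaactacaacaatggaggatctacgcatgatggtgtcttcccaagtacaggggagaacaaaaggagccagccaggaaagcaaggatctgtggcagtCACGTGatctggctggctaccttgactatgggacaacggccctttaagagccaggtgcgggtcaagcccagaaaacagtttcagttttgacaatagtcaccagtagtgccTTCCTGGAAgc
Madcam1, chr10:79664309-79664608, + strand: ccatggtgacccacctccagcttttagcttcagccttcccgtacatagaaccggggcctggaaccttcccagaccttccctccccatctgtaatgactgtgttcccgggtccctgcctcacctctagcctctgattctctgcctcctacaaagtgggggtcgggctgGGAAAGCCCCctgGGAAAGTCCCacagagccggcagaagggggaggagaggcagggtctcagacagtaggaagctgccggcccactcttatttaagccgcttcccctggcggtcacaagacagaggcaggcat

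The motifs were the STAT5 core TTCNNNGAA, the E-box CACGTG bound by USF factors, the TATA box TATAAA, the core of the interferon response element and the NF-kB site. Among the 32851 promoters of the same length they were found in 8.3%, 7.2%, 13.6%, 3.4% and 8.5%, respectively. The Pigr window held the E-box 71 bases before the start, and a match to the STAT5 core beginning at base 40 of the transcript. The Madcam1 window held 2 matches to the NF-kB site, beginning 83 and 70 bases before the start, neither overlapping another motif. No match to any of the 5 motifs was found in the windows of Ccl28, Jchain or Fcgrt. A match is a description of these letters and no measurement of binding.

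Ccl28, the epithelial chemokine that attracts IgA-secreting cells and that also kills microbes directly, was 24.0-fold higher at lactation day 4. Its values in lactation were 8.93, 9.68, 10.08 and 10.14, and in pregnancy 4.66, 4.97, 4.85 and 5.99. All 4 lactation arrays lay above all 4 pregnancy arrays, with 2.94 log2 units between the lowest lactation and the highest pregnancy array. The stage means were 9.71 ± 0.56 and 5.12 ± 0.60 (SD, n = 4 each), a difference of 4.59, and only 3 of the 25050 genes had a larger rise. Within pregnancy, replicate 4 stood above the other arrays, and within lactation, replicate 1 stood below them. The other 3 pregnancy values were no higher than the highest of Ccr10, 4.99, a level that cannot be separated from background here, and where they are background the fold is a lower limit.

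Pigr, the receptor that carries dimeric IgA across the epithelium, was already bright in pregnancy and was 1.82-fold higher in lactation. The lactation arrays read 10.67, 10.66, 10.55 and 10.72, and the pregnancy arrays 9.76, 9.56, 9.45 and 10.37. The groups did not overlap, but pregnancy replicate 4 came within 0.17 log2 units of the lowest lactation array. The means were 10.65 ± 0.07 and 9.78 ± 0.41 (SD, n = 4 each), a difference of 0.86. Without pregnancy replicate 4 the difference was 1.06. In lactation the SD of Pigr was smaller than that of most genes of like level (larger than in 17.6% of the 2000 genes nearest in mean level), while in pregnancy it exceeded 98.6% of them.

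Non-overlapping groups with lactation above pregnancy were thus found for 2 of the 6 genes, Ccl28 and Pigr, and over all 25050 genes for 12.1% (29.6% in either direction). None of the 6 had all lactation arrays below pregnancy, against 17.4% of all genes. Since the 6 were proposed on this comparison, nothing is read from these shares. The same pregnancy array, replicate 4, was the highest of its stage for Ccl28, Pigr and Jchain and the lowest for Madcam1. On that array the mean level of 10 milk secretion markers, caseins and whey proteins among them, was 10.65, against 10.40 to 10.61 on the other pregnancy arrays and 11.91 to 12.04 in lactation. The single markers did not all share this order. Lalba was the highest of its stage on that array (11.89, against 10.76 to 11.08), but Wap was the lowest (11.75, against 11.81 to 12.07). The part of that array in the members' values was not tested.

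**Figure D1:**
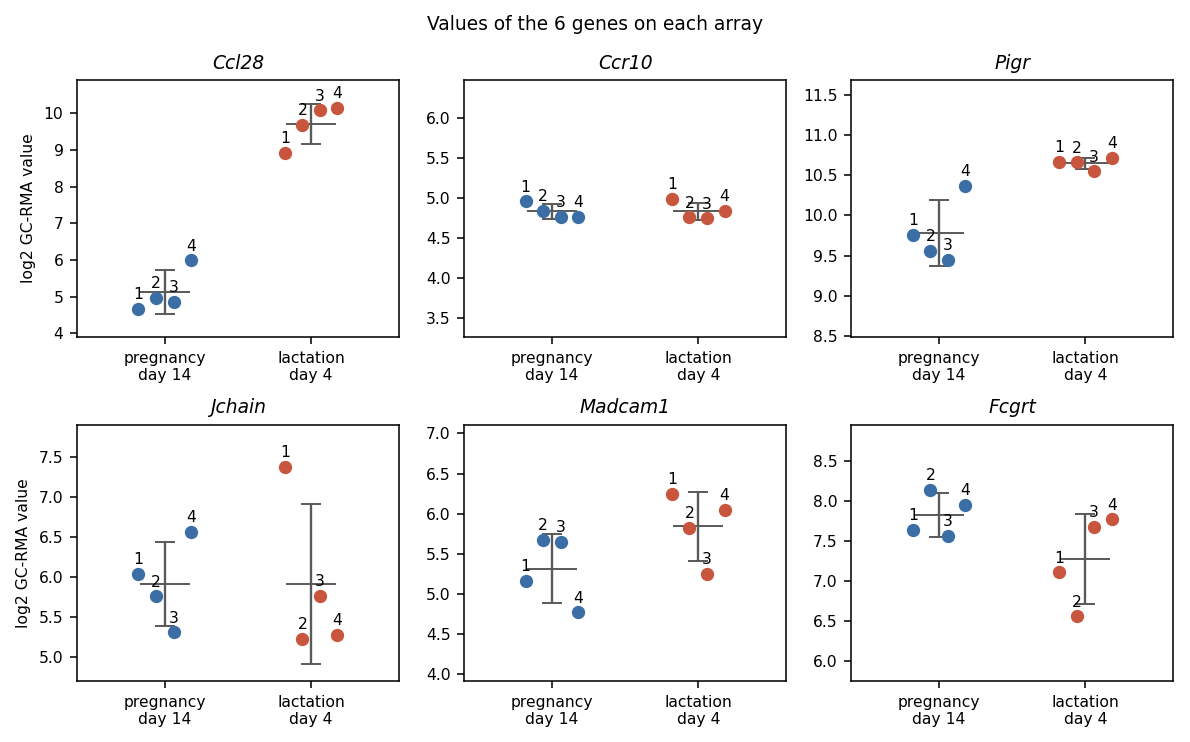
Log2 GC-RMA values of the 6 genes on each array, with pregnancy day 14 on the left and lactation day 4 on the right of each panel. Points are arrays with their replicate number, the dash and bar are the mean and SD of 4 arrays, and the vertical axis spans more log2 units for Ccl28 than for the other panels. The lactation arrays lie above every pregnancy array for Ccl28 and Pigr, and the stages overlap for the other genes.

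The genes whose pattern over the 8 arrays was most like that of Ccl28 were found by the root mean square difference between profiles, each centred on its own mean. Among 18649 genes compared, the median of this difference was 2.36 log2 units. Atp2b2, the apical plasma membrane calcium pump of lactating alveolar cells, was nearest at 0.33. It read 10.29, 10.93, 10.60 and 10.73 in lactation and 5.70, 5.84, 5.47 and 6.40 in pregnancy, so that, as for Ccl28, replicate 1 was the lowest lactation array and replicate 4 the highest pregnancy array. Gsdmc, a gasdermin whose probe set can share signal with near-identical family members, followed at 0.54, and Plpp4, a lipid phosphatase, at 0.59. Their stage differences were 4.65 and 3.96. These genes were selected for their likeness, so their differences are a description too.

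**Figure D2:**
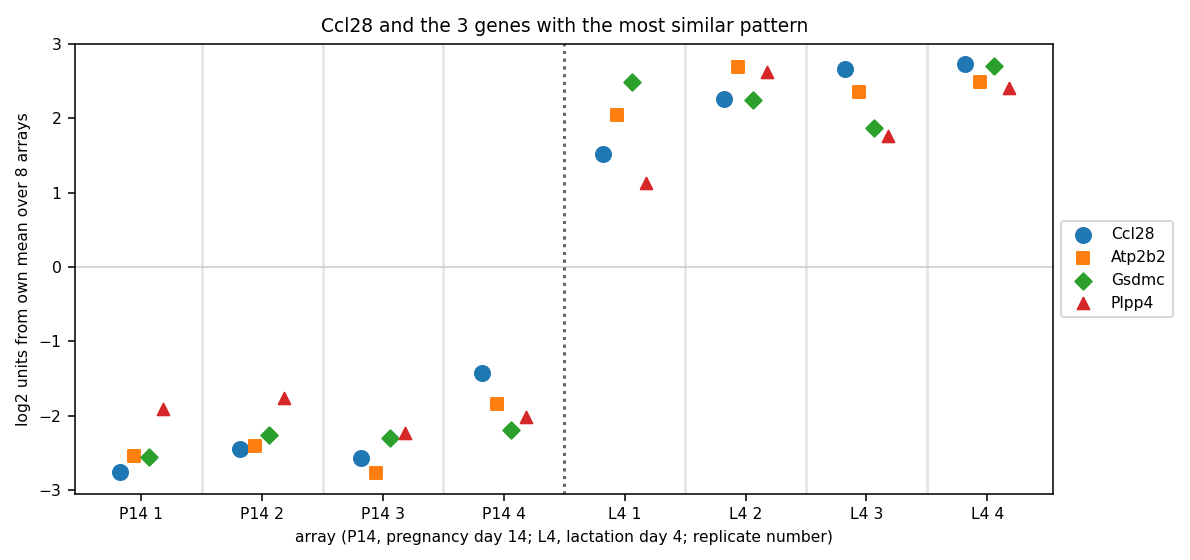
Profiles of Ccl28 and its 3 nearest genes over the 8 arrays, each in log2 units from its own mean, with the dotted line between pregnancy day 14 and lactation day 4. All 4 genes lie below their mean in pregnancy and above it in lactation. Replicate 4 is the highest pregnancy array of Ccl28, Atp2b2 and Gsdmc, and replicate 1 the lowest lactation array of Ccl28, Atp2b2 and Plpp4.

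Ccr10, the receptor for CCL28 on IgA-secreting cells, gave nearly the same value on every array. Lactation read 4.99, 4.76, 4.75 and 4.84, and pregnancy 4.96, 4.84, 4.77 and 4.77. The means were 4.84 ± 0.11 and 4.83 ± 0.09 (SD, n = 4 each), a difference of 0.003, and the full range over the 8 arrays was 0.24 log2 units. A low and level signal of this kind cannot be told apart from a probe set that does not detect its transcript. The ligand of this pair therefore differed by 4.59 between the stages and the receptor by less than its own SD.

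Jchain, which joins IgA monomers into the polymers that the polymeric immunoglobulin receptor binds, differed more between arrays than between stages. Lactation read 7.37, 5.23, 5.77 and 5.28, and pregnancy 6.04, 5.76, 5.31 and 6.56. The stage means were 5.91 ± 1.00 and 5.92 ± 0.52 (SD, n = 4 each), a difference of -0.01, and the groups overlapped throughout. Lactation replicate 1 was the highest of all 8 arrays, and without it the difference was -0.49. The lactation SD was larger than in 99.8% of the 2000 genes nearest in mean level.

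Several immunoglobulin transcripts were uneven over the arrays as well. Igha and Igkc, the IgA heavy chain and kappa light chain constant regions, had no probe set under their symbols. Ighm, the constant region of IgM, read 5.58, 4.47, 2.78 and 3.25 in lactation and 4.20, 3.96, 3.17 and 3.44 in pregnancy, so that the highest array was lactation replicate 1, as for Jchain. Iglc2, a lambda light chain constant region named after its values were seen, was highest at 5.44 on pregnancy replicate 2 and second highest at 5.28 on lactation replicate 1. Of 81 probe sets of immunoglobulin variable segments, a set chosen after its values were seen, 35 had their highest value on lactation replicate 1 and 20 on pregnancy replicate 1. The share of all genes highest on either array is not given here, so these counts have no background beside them. Some rest on very small margins, as for Igkv7-33, at 3.29 on both lactation replicate 1 and pregnancy replicate 3. The mean level of the 81 probe sets was 4.86 on lactation replicate 1, while the other lactation arrays had 4.09 to 4.42 and the pregnancy arrays 4.39 to 4.75. These means lay below the highest value of Ccr10, 4.99, a level that cannot be separated from background here, although single segments were brighter. Ighm lay below it too on every array but lactation replicate 1. Pregnancy replicate 4, where Jchain was second highest at 6.56, had a segment mean of 4.52 and an Ighm value of 3.44, neither the highest of its stage.

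Of 11 plasma cell markers 7 had a probe set. Derl3, an endoplasmic reticulum degradation protein of secretory cells, was the 1 gene of these that rose, by 1.68 (SE 0.175, limma adjusted p = 1.47e-04), and none fell. Ighm (0.33, limma adjusted p = 0.668), Mzb1, a chaperone of plasma and marginal zone B cells (-0.17, adjusted p = 0.314 in limma), and Tnfrsf17, the survival receptor BCMA (-0.01, adjusted p = 0.926 in limma), missed the threshold of an adjusted p under 0.05. Of the 7 log2 fold changes 5 were negative. Tnfrsf17 (3.93 to 4.28 over the 8 arrays), Prdm1, a plasma cell transcription factor (5.02 to 5.44), and Mzb1 (4.16 to 4.78) were nearly level, and none of them was highest on lactation replicate 1. Among the lactation arrays alone, Mzb1 was highest there, at 4.64, while Tnfrsf17, Prdm1 and Derl3 were not. Pou2af1 and Irf4, the other markers, are named after their values were seen. Pou2af1 was highest of the lactation arrays there too, at 5.86, and Irf4 read 4.00 there and on lactation replicate 3. Irf4 had a log2 fold change of -0.48 (adjusted p = 0.0816 in limma). The means of Tnfrsf17, Mzb1 and Irf4 in either stage lay below those of Ccr10, where signal and background cannot be separated. The summed level of the list, as log2 of summed linear values, was 8.11 to 8.44 in lactation and 7.58 to 7.93 in pregnancy. Without Derl3, left out after its value was seen, the sums overlapped, at 7.0 to 7.67 and 7.09 to 7.58, as did the mean log2 levels of all 7 markers, at 4.66 to 5.20 and 4.56 to 4.93. The upper ends of both lactation ranges, 7.67 and 5.20, were on lactation replicate 1, the highest of the 8 arrays. Ighm, which was highest there too, was among the markers. None of 10 B cell markers passed, although all 10 had negative log2 fold changes, with a summed level of 9.50 to 10.81 against 10.20 to 11.27. That sum rests largely on Cd74, the brightest of the 10, with means of 9.58 in lactation and 10.19 in pregnancy. The mean log2 levels of the 10 were 4.84 to 5.82 in lactation and 5.20 to 6.87 in pregnancy. In these bulk samples fewer cells of a type and less RNA per cell cannot be told apart.

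**Figure D3:**
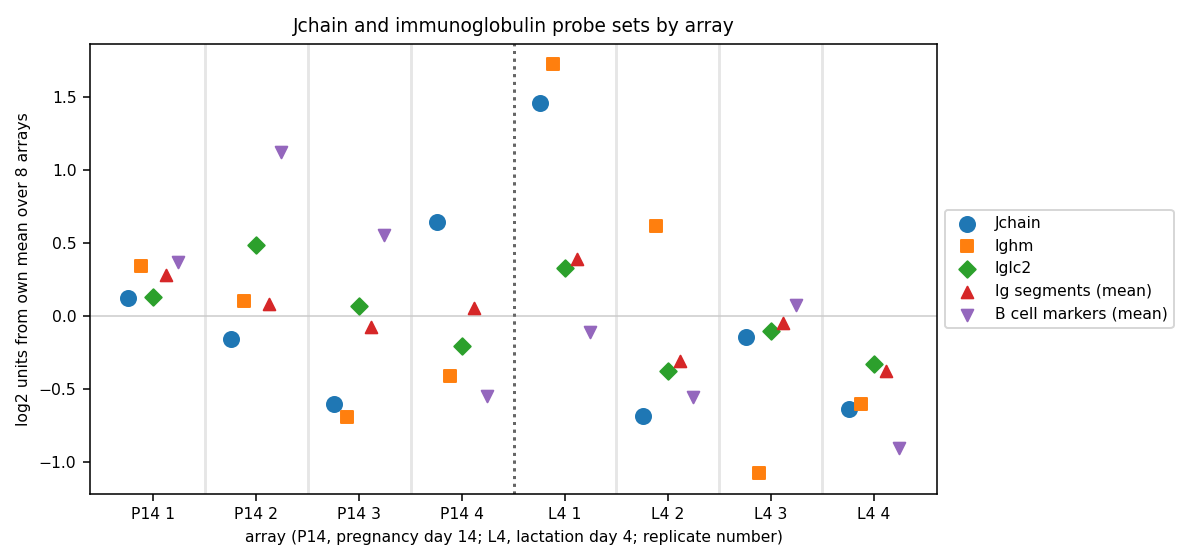
Jchain, Ighm, Iglc2, the mean of 81 immunoglobulin segment probe sets and the mean of 10 B cell markers on each array, in log2 units from their own mean over 8 arrays. Jchain, Ighm and the segments are highest on lactation replicate 1, while the B cell markers are highest on pregnancy replicate 2.

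Madcam1, the venule addressin bound by integrin α4β7, had overlapping groups with a higher mean in lactation. Lactation read 6.25, 5.82, 5.25 and 6.05, and pregnancy 5.16, 5.67, 5.65 and 4.77. In lactation 3 of 4 arrays lay above the highest pregnancy array, and replicate 3 lay among the pregnancy values. The means were 5.84 ± 0.43 and 5.31 ± 0.43 (SD, n = 4 each), a difference of 0.53. Without pregnancy replicate 4 the difference was 0.35, and without lactation replicate 1 as well it was 0.22. The mean level of 8 adipocyte markers was lowest on the same pregnancy array, at 5.23, and highest on lactation replicate 1, at 7.50, where Madcam1 was also lowest and highest. The other lactation arrays did not share this order. Replicate 4, with Madcam1 at 6.05, had the lowest adipocyte mean of its stage, 6.20, and replicate 3, with Madcam1 at 5.25, had 6.84. The summed level of the adipocyte list was 9.46 to 10.86 in lactation and 8.48 to 10.01 in pregnancy, with Adig and Lep rising in limma, the call of Lep lost under 4 of 17 alternatives, and 6 of 8 markers not called. That of 10 endothelial markers was 10.69 to 12.12 in lactation and 11.19 to 12.00 in pregnancy, with none called. The part of these cells in the Madcam1 values was not tested.

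Fcgrt, the heavy chain of the neonatal Fc receptor that binds IgG and albumin, had a lower mean in lactation, again with overlapping groups. Lactation read 7.11, 6.56, 7.68 and 7.77, and pregnancy 7.64, 8.14, 7.56 and 7.95. Lactation replicates 1 and 2 lay below every pregnancy array, and replicates 3 and 4 lay among them. The means were 7.28 ± 0.56 and 7.82 ± 0.27 (SD, n = 4 each), a difference of -0.54, which was -0.30 without lactation replicate 2. On replicate 2 the mean levels of macrophage and dendritic cell markers (5.84), endothelial markers (7.05) and fibroblast markers (6.15) were the lowest of the 8 arrays, as was Fcgrt. Basal and myoepithelial markers (8.15) were lowest there too. Fcgrt was highest on pregnancy replicate 2, as were the macrophage and fibroblast lists, but the endothelial list was highest on lactation replicate 4 (8.46). The summed level of the 11 macrophage and dendritic cell markers was 10.02 to 11.08 in lactation and 11.12 to 11.65 in pregnancy. Their mean log2 levels overlapped, at 5.84 to 6.91 and 6.81 to 7.34. Of the 11 markers 3 fell, led by Lyz2 (-1.31, SE 0.213, limma adjusted p = 0.00184), or 27.3%, where 25.8% of all genes were called in either direction. Of the 9 fibroblast markers 7 fell, with a median log2 fold change of -1.05 and a summed level of 9.95 to 11.12 in lactation and 11.31 to 12.10 in pregnancy. The part of these cells in the Fcgrt difference was not tested. B2m, the light chain that FcRn needs to reach the cell surface, had means of 11.47 ± 0.35 and 11.45 ± 0.13 (SD, n = 4 each) and differed by 0.02 on the log2 scale (limma adjusted p = 0.924).

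**Figure D4:**
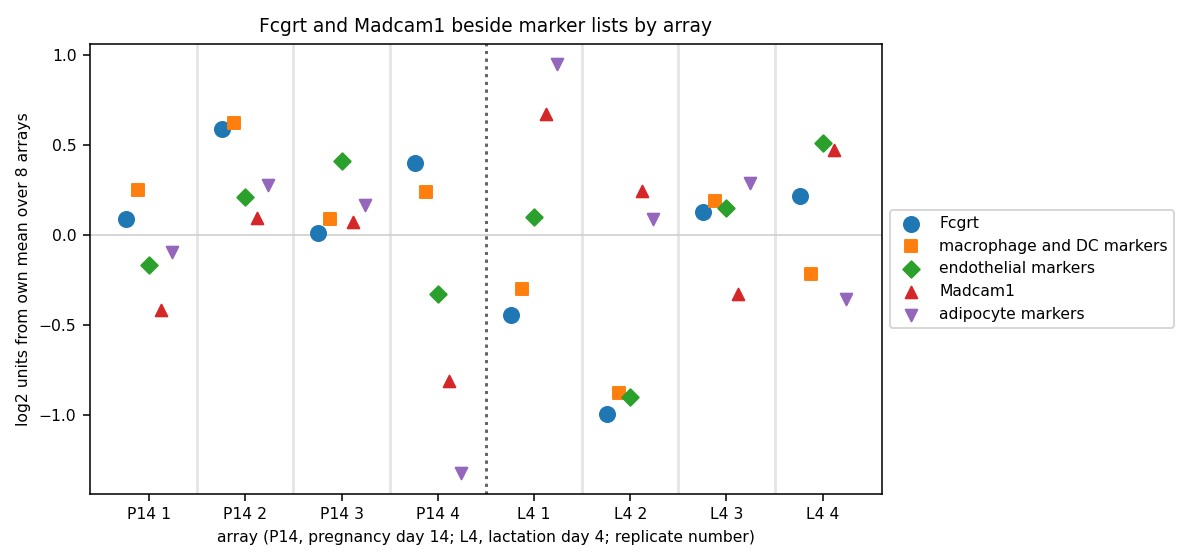
Fcgrt and Madcam1 beside the mean level of macrophage and dendritic cell, endothelial and adipocyte markers on each array, in log2 units from their own mean over 8 arrays. Fcgrt and the macrophage and endothelial lists are lowest on lactation replicate 2, and Madcam1 and the adipocyte list are lowest on pregnancy replicate 4. The order of the lactation arrays differs between Madcam1 and the adipocyte list.

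The other genes of these steps were taken from 6 textbook lists holding none of the 6 members, and tested in limma over all 25050 genes. Of 109 measured genes on the 6 lists 15 rose and 31 fell at lactation day 4, so that 42.2% were called, where 25.8% of all genes were (9.73% higher and 16.1% lower). Of the 96 measured genes on the cell type and milk marker lists 43.8% were called, so a share above that of all genes was not particular to the 6 lists. Of all called genes 62.3% were lower, but 47.1% with arrays centred on their medians. The median log2 fold change over the 109 was -0.17, and over all genes 0.01. Without lactation replicate 1 and pregnancy replicate 4 the counts were 11 and 31. Markers of luminal epithelium were lower in lactation too, with 8 of 12 falling and 2 rising and a summed level of 12.71 to 12.82 against 13.18 to 13.45, while all 10 milk secretion markers rose.

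Among homing chemokines, their receptors and adhesion molecules, 10 of 21 measured genes fell and none rose. The median log2 fold change was -0.63. Vcam1, the endothelial ligand of α4 integrins, fell by 1.39 (SE 0.215, limma adjusted p = 0.00135), from 7.54 ± 0.16 to 6.15 ± 0.49, and the leukocyte adhesion ligand Icam1 by 1.29 (SE 0.190, limma adjusted p = 0.00108). Itgb2, the β2 integrin chain, fell by 0.80. The integrin α4 chain Itga4, which with Itgb7 forms the MAdCAM-1 receptor, fell by 0.63 (limma adjusted p = 0.0349, lost under 7 of 17 alternatives), while Itgb7 had a log2 fold change of -0.37 (adjusted p = 0.165 in limma). Cxcr4, a homing receptor of plasma cells, fell by 0.66 (SE 0.0974, limma adjusted p = 0.00105), and its ligand Cxcl12 by 0.71 (limma adjusted p = 0.0399, lost under 7 of 17 alternatives). The gut homing pair Ccl25 and Ccr9 had log2 fold changes of 0.13 and -0.24, and Ccr3, the other receptor of CCL28, of -0.06 (limma adjusted p = 0.346, 0.202 and 0.518). The means of Ccr9 and Ccr3 in either stage lay below those of Ccr10, where signal and background cannot be separated. Of 10 T cell markers 7 fell and none rose, with a summed level of 8.15 to 9.00 in lactation and 9.10 to 10.72 in pregnancy, and of 9 fibroblast markers 7 fell and none rose, with 9.95 to 11.12 in lactation and 11.31 to 12.10 in pregnancy. The part of either cell type in the falls of the homing list was not tested.

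Of 11 venule addressin genes 2 rose and 1 fell, so that 27.3% were called, near the 25.8% of all genes. Gcnt1, a glycosyltransferase that builds selectin ligands, fell by 1.49 (SE 0.172, limma adjusted p = 2.71e-04). Glycam1, a selectin ligand of lymph node venules that is also an abundant milk protein gene of the mouse, rose by 0.37 (SE 0.0377, limma adjusted p = 1.38e-04), from 12.32 ± 0.06, near the highest value of any array, 13.03. Chst2, a sulphotransferase, rose by 0.45 (adjusted p = 0.0305 in limma, lost under 8 of 17 alternatives). Nkx2-3, a transcription factor needed for Madcam1 expression in mouse gut and spleen, showed a difference of 0.18 on the log2 scale (adjusted p = 0.166 in limma). Its means in either stage also lay below those of Ccr10. Of 18 measured genes for IgA switching and plasma cell survival 2 rose and 1 fell, or 16.7%, below the share of all genes. Il6ra, the interleukin 6 receptor, rose by 0.73 (SE 0.145, limma adjusted p = 0.00537). Il21 rose by 0.16, from 3.07 ± 0.04 to 3.23 ± 0.07, and its receptor Il21r fell by 0.50, from 4.97 ± 0.30 to 4.47 ± 0.22, calls lost under 8 and 6 of 16 alternatives. Both were among the dimmest 40% of genes, at levels like that of Ccr10 or below, which cannot be separated from background.

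Receptors and transcription factors that act on Pigr in other epithelia moved in both directions, with 5 of 24 rising and 9 falling. Ifngr2, a chain of the interferon gamma receptor, fell by 1.84 (SE 0.121, limma adjusted p = 9.28e-06), from 9.75 ± 0.24 to 7.91 ± 0.12. Relb, an NF-kB subunit, fell by 1.17 (SE 0.171, limma adjusted p = 9.96e-04), Irf1, an interferon-induced transcription factor, by 0.98 (SE 0.217, limma adjusted p = 0.00905) and the prolactin-activated factor Stat5a by 0.37 (limma adjusted p = 0.0161, lost under 1 of 17 alternatives). The prolactin receptor Prlr rose by 0.96 (SE 0.224, limma adjusted p = 0.0116), from 7.76 ± 0.52 to 8.72 ± 0.19. The other rises, named after their values were seen, were Tlr4 (0.93), the interleukin 4 receptor Il4ra (0.92), Tlr2 (0.91) and the glucocorticoid receptor Nr3c1 (0.80).

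In the epithelial transcytosis machinery 8 of 20 genes fell and 3 rose. Lyn, a kinase of the family that signals from the polymeric immunoglobulin receptor, fell by 0.69 (SE 0.146, limma adjusted p = 0.00712), the growth factor receptor Egfr by 0.62 and Rab11fip5, an effector of recycling endosomes, by 0.62, the last 2 calls each lost under 1 of 17 alternatives. Rab11a, the recycling endosome GTPase, fell by 0.29 (adjusted p = 0.0349 in limma, lost under 8 of 17 alternatives), and Rab3d, a GTPase of secretory vesicles, had a log2 fold change of 0.23 (adjusted p = 0.233 in limma). Snap23, a membrane fusion protein, rose by 0.61 (SE 0.130, limma adjusted p = 0.00775), and the other rises, named after their values were seen, were the transcytosis GTPase Rab17 (0.54) and the apical syntaxin Stx3 (0.26), calls each lost under 8 of 17 alternatives.

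Of 15 genes for the FcRn partner and other immunoglobulin receptors 3 rose and 2 fell, or 33.3%, where 25.8% of all genes were called. Trim21, a cytosolic antibody receptor, fell by 1.77 (SE 0.137, limma adjusted p = 2.41e-05), and Fcer1g, the signalling chain of Fc receptors on myeloid cells, by 0.80 (adjusted p = 0.0359 in limma, lost under 7 of 17 alternatives). Tfrc, the transferrin receptor, which in humans also binds polymeric IgA, rose by 1.52 (SE 0.134, limma adjusted p = 5.30e-05), from 8.29 ± 0.17 to 9.81 ± 0.26. Fcamr, a receptor for IgA and IgM on immune cells, rose by 0.39 (limma adjusted p = 0.0126), from 4.33 ± 0.11 to 4.72 ± 0.15, and Asgr1, a galactose-binding receptor of the liver named after its value was seen, rose by 0.23, from 4.08 to 4.31, lost under 11 of 16 alternatives. Both means of either gene lay below those of Ccr10, where signal and background cannot be separated.

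**Figure D5:**
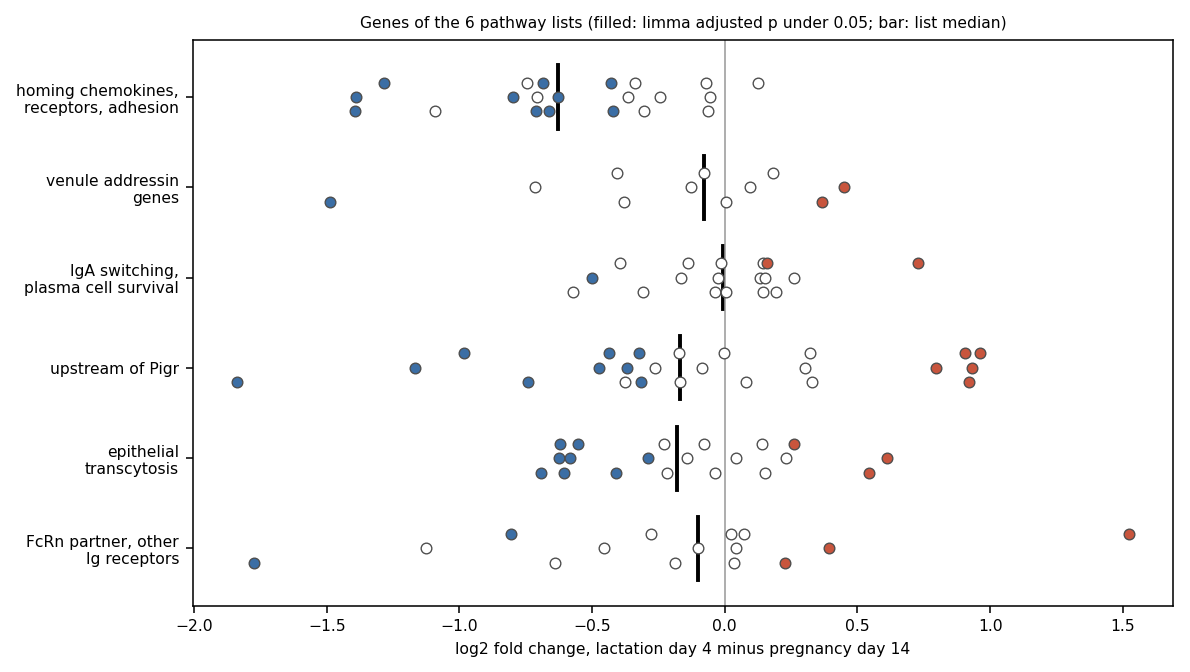
Log2 fold change of each measured gene on the 6 pathway lists, lactation day 4 minus pregnancy day 14. Filled points passed a limma adjusted p under 0.05, open points did not, and the bar is the list median; in the homing list no gene rose and 10 fell, while the Pigr list holds 5 rises and 9 falls.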

How the data were processed

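The samples were 8 Affymetrix whole-transcript arrays. The authors deposited log2 values per probe set; per the submitters' processing notes the tools were GCRMA and Partek. Software versions, the annotation and the build were not given in the sources used here. A gene of the homing list that the naming rule picked is counted but not reported here by name. GC-RMA corrects background by probe sequence and normalizes between arrays, so total RNA per cell is not measured and values near either end (2.04 to 13.03) can be compressed. A second deposited table held the same log2 values, with a largest difference of 0.

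Of 35556 probe sets 26836 carried a symbol. Current symbols came from the RefSeq table of GRCm38.p6 (22040 matched by accession, 3611 by symbol, 143 by synonym and 1042 kept), which left 25050 genes, each represented by the probe set with the highest mean. Probe sets can share signal between near-identical genes. Lactation day 4 was compared with pregnancy day 14 in limma 3.58.1 (R 4.3.3) with a trend of the variance on intensity and p-values adjusted by Benjamini-Hochberg over the 25050 genes, without a filter on dim genes and without the replicate number. An adjusted p under 0.05 was called. The procedure was tested on simulated data. Precision is limited by the number of arrays, with 95% confidence intervals of a log2 fold change that extended a median of 0.21 to either side.

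The 6 members and the lists were chosen with earlier results of these data known. Named genes were the members, up to 4 called genes of each list with the largest changes, 20 genes set by name, of which Igha and Igkc had no probe set, and the 3 genes most like any member whose stage means differed by 1 or more. Marker lists not described in the text were used only for this naming and for the share of marker genes called. Alternatives covered normalization, the variance model, dim genes, probe sets, the replicate number and each array in turn. Arrays correlated at 0.986 to 0.995 within stages and 0.964 to 0.978 between them, across genes, and none were duplicates.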

Additional observations from a re-analysis of the deposited data

Results flagged for a closer look

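The genes picked by the naming rule and most others named in the text were screened for outlying arrays. Prdm1, Pou2af1, Irf4, Epcam, Krt8 and Krt18 were not screened and are outside the counts of named genes below. By Dixon's criterion, 156 groups of 4 arrays were examined for a single array far from the other 3. Of these groups 7 were picked out, where chance gives about 1 in 20. None was a group of the 6 members. Cxcr4 read 6.17 on lactation day 4 replicate 1, against 5.85 to 5.87 on the other lactation arrays. Rab3d read 8.40 on lactation day 4 replicate 2, against 7.79 to 7.89. Ifngr2 read 7.74 on lactation day 4 replicate 4, against 7.96 to 7.98. Relb read 6.13 on pregnancy day 14 replicate 4, against 6.88 to 6.94 on the other pregnancy arrays. Tlr4 read 6.83 on the same array, against 6.28 to 6.37. Il4ra read 8.25 on pregnancy day 14 replicate 2, against 7.87 to 7.89. Cldn4, a tight junction claudin, read 7.88 on pregnancy day 14 replicate 2, against 8.24 to 8.31.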

How the results depend on the processing

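The differences of Ccl28, Pigr and Madcam1 were positive under all 16 alternatives, from 4.44 to 5.41, 0.75 to 1.69 and 0.22 to 1.36. Of the 16, the second deposited table, the mean of probe sets and the replicate block repeat a member's main value by construction. They add nothing to the counts of signs given here. In an alternative, arrays were centred on the mean of Epcam, Cdh1, Krt8 and Krt18. All of these but Epcam (-0.12, limma adjusted p = 0.319) were themselves called lower in lactation. With this centring the differences became 5.41 for Ccl28, 0.83 for Ccr10, 1.69 for Pigr, 0.82 for Jchain, 1.36 for Madcam1 and 0.29 for Fcgrt, so that Jchain and Fcgrt changed sign. Fcgrt was negative under the other 15 alternatives, while Jchain was positive under 8 of the 16 and negative under 8, and Ccr10 positive under 10 and negative under 6. With medians in place of means Jchain was -0.38. Genes called higher over the whole table numbered 2438, 3719 with arrays centred on their median and 1537 to 2487 with an array left out, lowest without pregnancy day 14 replicate 3. Pathway genes called ranged from 10 to 17 higher and 21 to 33 lower. Of 61 called named genes 39 kept the call under every alternative, and none changed sign past the threshold. Of those not called, Ccl25 passed with the mean of its probe sets (adjusted p = 0.036 in limma), and Ccr9, Itgb7 and Iglc2 passed as lower without lactation day 4 replicate 1 and pregnancy day 14 replicate 4 together (0.047, 0.0372 and 0.0368), an alternative chosen after seeing the data. With the replicate number as a block, 2530 genes were called higher and 3935 lower, and 11 and 33 of the pathway genes. Deviations of same-numbered arrays correlated at 0.24, -0.16, 0.15 and 0.18, and 2 of 4 arrays correlated best with their own number, so the numbers were not taken as pairs. The precision is limited by the number of arrays, and without detection calls a low level value such as that of Ccr10 cannot be separated from background.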
